A study of Caenorhabditis elegans with 2 samples.

Results

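The srw genes are a family of predicted chemoreceptors of the nematode Caenorhabditis elegans. The family was taken here as every protein-coding gene or pseudogene of the WBcel235 assembly whose symbol is srw- followed by a number. This gave 145 of the 21892 protein-coding genes and pseudogenes on the nuclear chromosomes, of which 109 were coding and 36 were pseudogenes. All 145 had the same coordinates and class in the RefSeq and Ensembl annotations, and the names of the pseudogenes came from RefSeq. On chromosome V lay 127 members, 95 coding and 32 pseudogenes, and the other 18 lay on chromosomes I, II, III and IV. Their lengths ran from 569 to 8325 bp with a median of 1565 bp.

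Chromatin was immunoprecipitated from whole L1 larvae, labelled as a pool of males and females, and sequenced. The larvae came from strain OP196, with genotype unc-119(ed3) III; wgIs196, in which wgIs196 is an insertion that expresses eGFP-tagged SPTF-1. The tagged protein belongs to the Sp family of zinc finger transcription factors, and the labels give the antibody as sptf-1 only. There were 2 biological replicates of this 1 group, and no untagged, untreated or control sample was analysed here, so no test between conditions could be made. The tagged protein came from a transgene in a mutant for unc-119, and whole larvae pool the chromatin of all tissues.

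Nematode chemoreceptors are G protein-coupled receptors with membrane-spanning helices that, where they have been studied, sit mostly in the cilia of sensory neurons. They are encoded by many families that lie in tandem clusters, above all on the arms of chromosome V, and pseudogenes are frequent among them. The srw family is counted among the solo families, outside the Sra, Str and Srg superfamilies, and its sequences resemble those of peptide receptors more than other chemoreceptors do. The ligands of most members are not known.

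The data were 4 lists of regions on the ce11 build, which is WBcel235. Each replicate list held 30000 regions, described in the file records as peaks and background, so that most listed regions need not be binding sites. Regions of a list were all equally wide. Replicate 1 used 336 bp and replicate 2 used 350 bp, while the pooled list (193 regions) and the optimal IDR list (18 peaks) used 344 bp. IDR, the irreproducible discovery rate, scores how consistently regions rank in replicates. Each region has a signal value from the authors' peak caller on an unstated scale, which is used here only to rank regions within a list, rank 1 being the highest. Signal ran from 7.51 to 37.1 with a median of 9.78 in replicate 1, and from 6.09 to 26.5 with a median of 8.13 in replicate 2. The lists hold no read counts, so the depth is unknown. A region was assigned to a gene when it overlapped the gene body or the 1 kb before its start by at least 1 bp. Both replicate lists were derived from their own alignment and 1 more file, of unstated kind, that they share, per the file records.

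Of the 145 members, 1 held an optimal IDR peak. The peak lay in srw-75 (WBGene00005822), a pseudogene on the minus strand of chromosome V, at chrV:16634836-16635179. Its summit fell in the first intron of 4 annotated exons, 611 bp after the start. The coding gene srw-48 (WBGene00005795) was the member whose overlapping regions had the best mean rank in the replicates, and 5 other members held a region among the 500 highest of 1 replicate, of which srw-102 and srw-103 share theirs. The sequences below are those of these 6 places, because they are the srw sequences of highest rank, from ce11 on the strand of the gene. Capitals mark bases of annotated exons of the named gene. The srw-75 sequence is the 300 bases around the summit of the optimal IDR peak (chrV:16634858-16635157), the srw-48 sequence is the 126 bases shared by the regions of both replicates (chrV:16421901-16422026), and the others are the 120 bases around the summit of the highest region.
srw-75: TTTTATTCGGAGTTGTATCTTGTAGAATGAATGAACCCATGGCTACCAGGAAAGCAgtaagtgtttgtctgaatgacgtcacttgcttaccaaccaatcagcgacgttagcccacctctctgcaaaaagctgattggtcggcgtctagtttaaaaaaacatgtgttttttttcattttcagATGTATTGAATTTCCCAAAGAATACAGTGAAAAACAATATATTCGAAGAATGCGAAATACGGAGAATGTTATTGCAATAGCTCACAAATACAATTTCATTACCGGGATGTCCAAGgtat
srw-48: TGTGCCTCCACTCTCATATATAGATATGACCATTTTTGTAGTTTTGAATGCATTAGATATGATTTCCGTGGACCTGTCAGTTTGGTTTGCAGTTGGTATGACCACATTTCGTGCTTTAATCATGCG
srw-103: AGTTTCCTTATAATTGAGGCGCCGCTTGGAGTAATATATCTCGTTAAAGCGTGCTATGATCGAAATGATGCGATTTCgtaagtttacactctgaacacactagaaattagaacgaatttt
srw-54: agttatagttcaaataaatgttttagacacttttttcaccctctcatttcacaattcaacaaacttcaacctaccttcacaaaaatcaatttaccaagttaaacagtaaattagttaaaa
srw-96: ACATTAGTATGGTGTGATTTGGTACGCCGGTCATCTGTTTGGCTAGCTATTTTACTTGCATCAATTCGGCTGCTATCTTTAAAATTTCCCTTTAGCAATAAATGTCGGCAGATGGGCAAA
srw-84: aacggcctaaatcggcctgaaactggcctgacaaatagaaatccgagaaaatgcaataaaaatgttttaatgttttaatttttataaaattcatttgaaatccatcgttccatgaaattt

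In srw-75 the lower-case stretch is the whole first intron, of 125 bp, from 16634977 to 16635101, followed after the second exon by the first 4 bases of the next intron. The srw-48 stretch and the srw-96 window are exon throughout, the srw-103 window crosses the end of an exon, and the windows of srw-84 (intron) and srw-54 (upstream) hold no exon base of the gene. GC content was 37.3% in srw-75, 38.9% in srw-48, 36.7% in srw-103, 26.7% in srw-54, 40.0% in srw-96 and 30.0% in srw-84. The sequence GGGCGG, core of the GC box that Sp proteins bind, was absent from all 6 on either strand. The srw-75 intron holds accaatcagc and its reverse complement gctgattggt 26 bp apart. A pair of 10-base arms of this kind was found in 22.7% of 300-base windows around all summits of replicate 1 and 20.8% of those of replicate 2. It was looked for only after the sequence had been seen, and its presence is a description.

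At srw-75 the signal was 36.2 in the pooled list, where it ranked 13 of 193, and the deposited q was 0.36. In replicate 1 the overlapping region ranked 14 of 30000 with a signal of 25.4 and a q of 0.0141. In replicate 2 it ranked 1862 with a signal of 12.8 and a q of 0.390. The region was therefore near the top of replicate 1 and in the upper part of replicate 2, and the regions shared 282 bp with summits 61 bp apart. On the older build ce10 the optimal IDR list held 11 peaks and had none with this signal within 0.01 units. The ce10 pooled list had 1 region on chromosome V with the same signal, 36.2, at rank 12, and the lowest signal in the ce10 optimal list was 36.3. That region was matched by its signal alone, since coordinates were not converted. On ce11 the place ranked 13 of the 18 peaks of the optimal list, whose lowest signal was 35.1. The matched region stood just below the optimal list on ce10. No other member had a region in the pooled list, so that 0 of the 109 coding members had one (95% exact interval 0 to 3.33%). By the convention of 3 counts, a zero among 109 leaves room for 2.75%. Among 4908 other genes and pseudogenes of chromosome V with a length within the range of the srw genes there (the comparison genes), 0.754% had a region of the pooled list and 0.122% an optimal IDR peak. The corresponding share of the 145 srw members was 0.690% for either list (95% exact interval 0.0175 to 3.78%). All intervals given here are exact intervals that cover counting error only.

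At srw-48 the region of replicate 1 at chrV:16421691-16422026 ranked 83 with a signal of 21.9 and a q of 0.0909. The overlapping region of replicate 2 at chrV:16421901-16422250 ranked 1245 with a signal of 13.5 and a q of 0.348. Both summits lay in introns, 863 and 1080 bp after the start, on the 2 sides of the exon printed above. The gene had 1 more region in replicate 1, at rank 15726, and 2 more in replicate 2, at ranks 1836 and 25929. No region of the pooled list overlapped it.

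As at srw-75 and srw-48, the remaining members with a region among the 500 highest had none among the 500 highest of the other replicate. A region of replicate 2 in an exon of the pseudogene srw-96, 747 bp after its start, ranked 17 with a signal of 21.0 and a q of 0.0189, and overlapped no region of replicate 1. A region of replicate 1 that ranked 102 lay 498 bp upstream of the coding gene srw-54, with its summit inside the neighbouring pseudogene Y32B12C.5. The region of replicate 2 upstream of srw-54, at rank 3155, did not overlap it. In srw-103 a region of replicate 1 in an exon, 2009 bp after the start, ranked 247 and overlapped regions ranked 8213 and 20250 in replicate 2. The same region reached the 1 kb before the start of the next gene, srw-102, by its edge. In srw-84 a region of replicate 2 in an intron ranked 146 with a signal of 17.3 and overlapped none of replicate 1. The regions of srw-75 in replicate 1 and srw-96 in replicate 2 were the only srw regions with a q under 0.05, against 9 of 4111 regions at comparison genes in replicate 1 and 9 of 4335 in replicate 2.

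Other members had overlapping regions of moderate rank in both lists. Upstream of srw-2, by 948 and 904 bp, the ranks were 1403 in replicate 1 and 3067 in replicate 2. In an intron of srw-66, on chromosome II, they were 1238 and 7036. The 3 members whose pair ranked within the first 5000 of both lists were srw-75, srw-48 and srw-2. Pairs at srw-84 (3594 and 10096), srw-95 (12215 and 5276), srw-120 (14529 and 4191), srw-79 (8452 and 11631) and srw-23 (19067 and 1036) followed, each rank of replicate 1 before that of replicate 2. The summits of the srw-95 pair lay 336 and 106 bp before its start and inside eif-1.A, a gene for a translation initiation factor. Those of the srw-23 pair lay beyond the end of srw-23 and inside F49A5.10.

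In all, 34 members had overlapping regions of both replicates, 25 coding and 9 pseudogenes. The best pair ranked higher in replicate 1 for 18 of them and in replicate 2 for 16. Over the 43 distinct pairs of regions, Spearman's rho between the ranks was 0.0453, which describes pairs from lists with that file in common and is given without a test. The corresponding value over 1226 pairs at comparison genes was -0.0261. Both values are near 0.

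**Figure D1:**
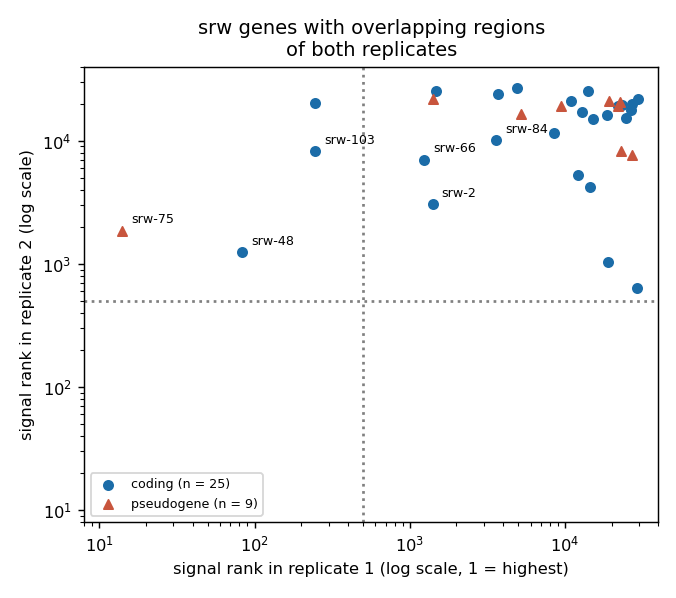
Signal rank in replicate 1 (x axis, log scale) and replicate 2 (y axis, log scale) of the overlapping pair with the best mean rank for each of 34 srw members, circles for 25 coding genes and triangles for 9 pseudogenes, with dotted lines at rank 500. The points for srw-75 (14 and 1862) and srw-48 (83 and 1245) lie apart at the left, no point lies within the first 500 of both, and 3 lie within the first 5000 of both.

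Most srw members had a region somewhere in the lists of peaks and background, at about the share of other genes. A region of replicate 1 lay at 88 of 145 members, 60.7% (52.2 to 68.7%), against 62.6% of comparison genes. A region of replicate 2 lay at 90 members, 62.1% (53.6 to 70.0%), against 65.6%. Regions of both lists lay at 59 members, 40.7% (32.6 to 49.2%), against 44.6%, and overlapping regions of both at 34, 23.4% (16.8 to 31.2%), against 22.9%. Each interval of the members held the share of the comparison genes, so no difference was detectable with this number of genes. A region of replicate 1 alone lay at 29 of 145 members and at 885 of 4908 comparison genes. For replicate 2 alone the counts were 31 and 1032. Members with none in either list were 26, 17.9%, against 16.4% of comparison genes. Neighbouring genes can share a region, and some comparison genes lie beside srw genes, so the sets are not independent.

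Coding members and pseudogenes had close shares. In replicate 1, 66 of 109 coding members had a region, 60.6% (50.7 to 69.8%), and 22 of 36 pseudogenes, 61.1% (43.5 to 76.9%). Comparison genes were at 63.8% for coding genes and 53.7% for pseudogenes. In replicate 2, 68 coding members had one, 62.4% (52.6 to 71.5%), and again 22 pseudogenes, 61.1%, against 66.9 and 56.6% in the comparison. Regions of both lists lay at 44 coding members, 40.4% (31.1 to 50.2%), against 46%, and at 15 pseudogenes, 41.7% (25.5 to 59.2%), against 34.1%. Overlapping regions lay at 25 coding members, 22.9% (15.4 to 32.0%), against 23.4%, and at 9 of the 36 pseudogenes (interval 12.1 to 42.2%), against 19.1%. The srw pseudogenes stood above other pseudogenes in all 4 shares and the coding members below other coding genes in all 4, by less than the counting error each time. The median length was 1503 bp in srw pseudogenes and 1404 bp in comparison pseudogenes. It was 1591 bp in coding members and 1815 bp in coding comparison genes. The shares by class were not weighted to length, and a part of length in this order was not tested. These shares are over all chromosomes, and for pseudogenes the order was not kept on chromosome V in replicate 2. There 18 of 32 srw pseudogenes had a region in each list, 56.3% (37.7 to 73.6%). On chromosome V alone, 75 of 127 members had a region of replicate 1 and as many one of replicate 2, 59.1% each (49.98 to 67.7%). Comparison genes had 62.6 and 65.6%. Regions of both lists lay at 48 of the members there, 37.8% (29.3 to 46.8%), against 44.6%. Of the 18 members elsewhere, 13 had a region in replicate 1, 72.2% (46.5 to 90.3%), and 15 in replicate 2, 83.3% (58.6 to 96.4%). All 21892 genes and pseudogenes had 66.0 and 67.0%. The 4 pseudogenes among the 18 had one in each list (interval 39.8 to 100%), against 49.0 and 50.5% of all pseudogenes. The 18 members were longer, with a median of 1904.5 bp against 1516 bp on chromosome V.

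**Figure D2:**
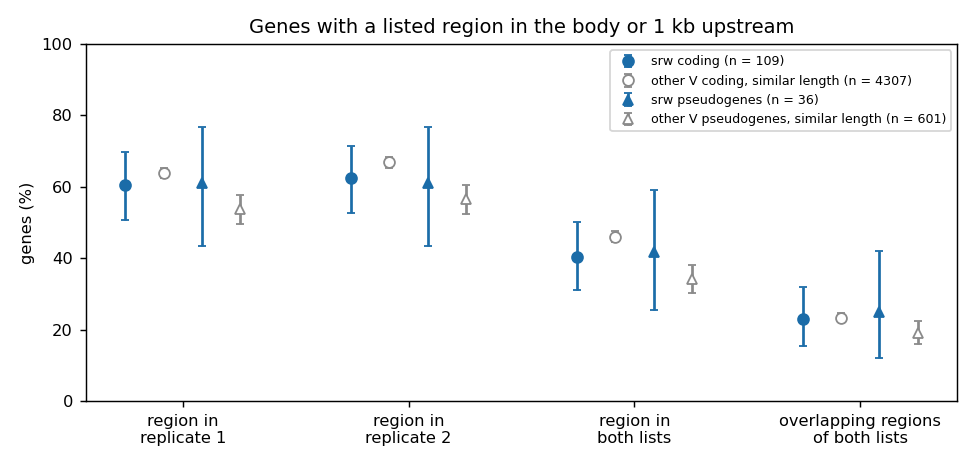
Percentage of genes (y axis) with a listed region in replicate 1, replicate 2, both lists, or overlapping regions of both (x axis). Filled points are srw coding genes and pseudogenes, and open points are comparison genes, with 95% exact intervals. The comparison genes lie within the length range of the srw genes on chromosome V. Their median length was 1757 bp, against 1565 bp in all srw members. The srw points lie between 60.6 and 62.4% in each single list, and every srw interval holds the value of its comparison group.

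Members over 2000 bp long more often had a region than those up to 1300 bp, as did comparison genes. Of the chromosome V members up to 1300 bp long, 8 of 24 had a region of replicate 1, 33.3% (15.6 to 55.3%), and 9 of replicate 2, 37.5% (18.8 to 59.4%). Among those over 2000 bp, 15 of 19 had one in replicate 1, 78.9% (54.4 to 93.9%), and 13 in replicate 2, 68.4% (43.4 to 87.4%). Comparison genes went from 49.1 to 73.3% in replicate 1 and from 51.7 to 75.8% in replicate 2 between the same classes. The rise was not steady through the classes between. From 1300 to 1600 bp, members had 57.1% in each list and comparison genes 60.8 and 64.8%. From 1600 to 2000 bp, members had 68.6 and 71.4% and comparison genes 60.2 and 64.0%. With the comparison genes weighted to the lengths of the srw genes, their shares were 59.2% in replicate 1, 62.6% in replicate 2 and 39.5% in both. These lay within 2 percentage points of the shares of all 145 members. The 127 members on chromosome V, where the comparison genes lie, had 59.1, 59.1 and 37.8%. Per length, the srw genes held 3.36 regions per 10 kb of body and upstream sequence in replicate 1 and 3.64 in replicate 2, against 3.16 and 3.36 in the comparison genes. Members on chromosome V alone held 3.23 and 3.44. A region at more than 1 gene was counted for each. The number of regions in both lists together ran from 0 to 8 per member with a median of 2. The most were in srw-84 with 8, srw-99 with 6, and srw-115, srw-23 and srw-48 with 5, a number that 7 members reached. In srw-99 the highest of them ranked 643 in replicate 2, 114 bp before the start, and overlapped a region ranked 29240 in replicate 1. In srw-115 the highest was at rank 6790, in replicate 1, with its summit beyond the end of the gene.

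The signals of srw regions were spread over each list much as all regions were. The 125 regions of replicate 1 at srw members had a median percentile of 49.5 (95% interval 42.6 to 53.7), where 50 is the middle of the list, and the 136 regions of replicate 2 one of 48.4 (40.6 to 54.1). Comparison genes had 49.7 and 50.6. The regions at pseudogenes had a median percentile of 28.1 in replicate 1 (21.3 to 64.9, 28 regions) and 45.7 in replicate 2 (29.6 to 72.4, 32 regions). Those at coding members had 50.6 (43.8 to 57.4, 99 regions) and 49.4 (40.6 to 60.1, 106 regions). Regions at comparison pseudogenes had 49.4 (44.5 to 53.6) in replicate 1 and 44.9 (42.5 to 49.8) in replicate 2. Those at coding comparison genes had 49.6 and 51.2. The lower median of srw pseudogenes in replicate 1 was not matched in replicate 2, and the intervals overlap. Of the srw regions, 3.20% in replicate 1 and 1.47% in replicate 2 were among the 500 highest, which make 1.67% of each list. Among the 5000 highest, 16.7% of a list, lay 16.0 and 16.9% of them.

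The replicates listed the same places at srw genes about as often as elsewhere. Of the 125 srw regions of replicate 1, 43 overlapped a region of replicate 2, 34.4% (26.1 to 43.4%), against 27.9% of the whole list and 28.2% of regions at comparison genes. Of the 136 srw regions of replicate 2, 38 overlapped one of replicate 1, 27.9% (20.6 to 36.3%), against 28.1 and 27.1%. The comparison genes lie on chromosome V only. For srw regions on chromosome V the shares were 31.1% (22.3 to 40.9%) in replicate 1 and 26.1% (18.2 to 35.3%) in replicate 2. All regions of chromosome V had 27.7 and 27.1%. For regions at coding members the shares were 34.3 and 28.3%, and at pseudogenes 35.7 and 28.1%. Among members with regions in both lists, the regions overlapped in 34 of 59, 57.6% (44.1 to 70.4%), against 51.3% of 2188 comparison genes.

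Within the genes, summits lay in proportion to length. Of 119 summits of replicate 1 inside the body or the 1 kb before it, 37.0% were upstream, 40.3% in exons and 22.7% in introns, where these parts made 36.6, 40.5 and 22.9% of the sequence. In replicate 2 the shares of 131 summits were 38.9, 38.2 and 22.9%. Among the steps of 500 bp within 1000 bp of the start, the one just before it had the most summits per length. There, replicate 1 had 28 summits, 3.86 per 10 kb (95% exact Poisson interval 2.57 to 5.58), and replicate 2 had 31, 4.28 per 10 kb (2.91 to 6.07). Comparison genes had 2.78 and 3.00 per 10 kb in the same step, and other chemoreceptor families 2.81 and 3.21. Both srw intervals held the comparison value. In each replicate a step further into the genes, which fewer members reach, was higher still, and it was not the same step in both. Replicate 1 had 4.58 per 10 kb from 2000 to 2500 bp (1.25 to 11.7, 4 summits), against 2.83 in comparison genes. Replicate 2 had 4.38 from 1500 to 2000 bp (2.18 to 7.83, 11 summits), against 3.13. The step before the start is therefore not the highest of the whole profile. The 28 and 31 summits belonged to 27 and 30 genes, of which 10 had one in each list, 9 of them coding. The closest to a start in both were those of srw-79, 12 and 16 bp upstream. In the step just before the start, srw-120 had summits 5 and 83 bp upstream.

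**Figure D3:**
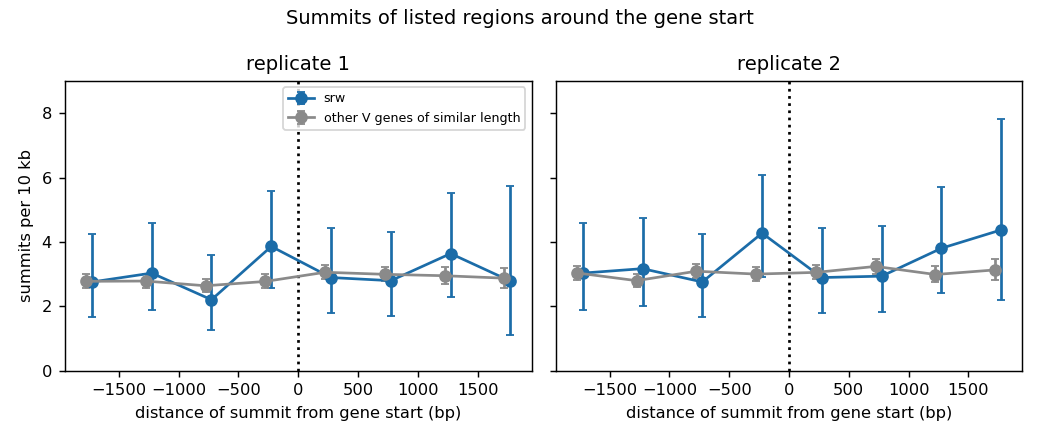
Summits per 10 kb (y axis) in steps of 500 bp by distance from the gene start (x axis, negative upstream) in replicate 1 (left) and replicate 2 (right), for 145 srw members and 4908 comparison genes, with 95% exact Poisson intervals. The srw points at the step just before the start are 3.86 and 4.28, against 2.78 and 3.00 in the comparison genes, with intervals that reach down to 2.57 and 2.91. In replicate 2 the srw point from 1500 to 2000 bp is at 4.38.

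Base composition and copy number were described for the same regions. The median GC content of srw regions was 34.5% in replicate 1 and 34.6% in replicate 2, against 35.1 and 36.0% in the whole lists. GGGCGG was found on either strand in 3 of 125 srw regions of replicate 1, 2.40% (0.498 to 6.85%), and in 5 of 136 of replicate 2, 3.68% (1.20 to 8.37%). The whole lists had it in 4.997 and 5.67%, and regions at comparison genes in 4.01 and 4.43%. Upstream of or at the start of srw-114 it lay in overlapping regions of both lists, at ranks 19119 and 21121. This gene was picked out after its values were seen, since only here did both lists have the sequence. A copy elsewhere in the genome, of at least 200 bp at 90% identity or more, existed for 6 srw regions of replicate 1, 4.80% (1.78 to 10.2%), and 1 of replicate 2, 0.735% (0.0186 to 4.03%). Comparison regions had one in 2.31 and 2.63%. Of the regions among the 500 highest at srw members, 0 of 4 in replicate 1 and 0 of 2 in replicate 2 had such a copy, and the peak of srw-75 had none. The region of replicate 2 in srw-120 at rank 21588 matched srw-119 over 343 bp at 91.0% identity, and its assignment is uncertain for that reason.

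Members fell into 38 groups when neighbours within 100 kb were joined, 20 of them single genes. The largest held 29 genes on chromosome V from 2830878 to 3034336, between srw-2 and srw-8, of which 16 had a region of replicate 1, 13 one of replicate 2 and 10 none in either. These 10 made 34.5% (17.9 to 54.3%), against 9 of 52 other genes in the same stretch, 17.3%, and 16.4% of all comparison genes. The genes there were short, with a median length of 1357 bp. In the group of 15 genes from 16336626 to 16699773 of the same chromosome, which holds srw-48, srw-54 and srw-75, 8 had a region of replicate 1, 12 one of replicate 2 and 1 had none, against 31 of 122 other genes there with none, 25.4%. The group of 16 genes from 15176768 to 15334571 had 4 without a region, against 18 of 57 others, 31.6%, and that of 10 genes from 15931292 to 15955032 had 2. The groups were formed after results were known, and differences between them were not tested.

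Beside the other chemoreceptor families, srw stood below the middle of the order for the single lists and for both, and at the middle for overlapping regions. Among 17 families of 20 or more genes, the share with a region of replicate 1 ran from 48.6% in srv to 71.8% in sra, and srw was in place 13 from the top. In replicate 2 it ran from 57.1% in srbc and srz to 92.6% in srab, with srw in place 11. For regions of both lists the range was 31.0% in str to 63.0% in srab, with srw in place 13 at 40.7%. For overlapping regions it was 10.4% in sru to 31.1% in srj, with srw in place 9 at 23.4%. The other families together, 1482 genes, were at 62.6% in replicate 1, 63.4% in replicate 2, 41.4% in both and 21.4% for overlapping regions. Neighbours of srw in these orders do not differ beyond their counting error.

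**Figure D4:**
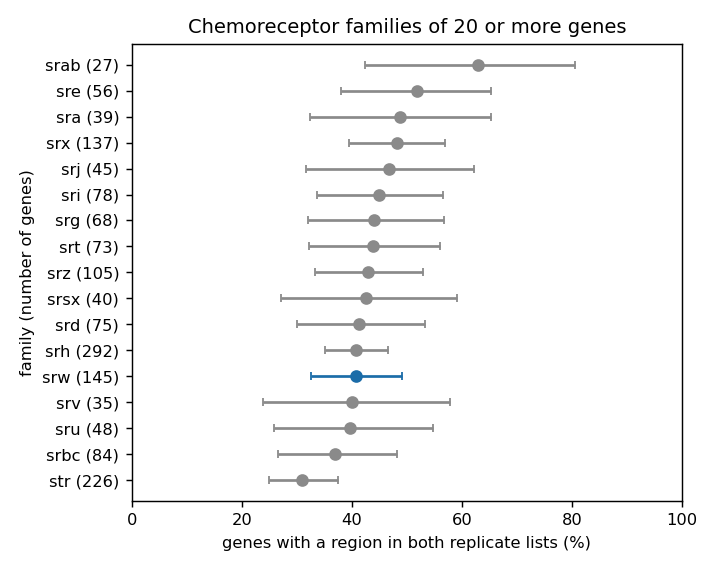
Percentage of genes with a region in both replicate lists (x axis) for 17 chemoreceptor families of 20 or more genes (y axis, number of genes in brackets), with 95% exact intervals. srw is at 40.7%, between str at 31.0% and srab at 63.0%, and its interval of 32.6 to 49.2% holds the points of all the other families but srab, sre and str.

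Of 16 genes that act with chemoreceptors in sensory neurons, 14 had a region of replicate 1, 13 one of replicate 2 and 12 both. Over all 21892 genes the shares were 66.0, 67.0 and 49.2%, and over the comparison genes longer than 2000 bp they were 73.3, 75.8 and 58.4%. The 16 genes are longer than srw genes, with a median of 4436 bp, so their counts are not set against those of srw. The G protein subunit gene odr-3 had no region, and gpa-13, another G protein subunit gene, had regions of rank 2231 in replicate 1 and 454 in replicate 2. The channel gene tax-4 had its best regions at ranks 12807 and 11078. Only tax-6, which encodes the calcineurin A subunit, had a region of the pooled list, and its best ranks were 89 and 3055. The kinase gene egl-4, which is 32526 bp long, had its best at 69 and 2344. The genes odr-4 and odr-8, which act in bringing receptors to the cilia, had best ranks of 2735 and 7286 in replicate 1. In replicate 2, odr-8 was at 10700 and odr-4 had no region.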

How the data were processed

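Regions came from the deposited lists on ce11, and for srw-75 also from the pooled and optimal lists on ce10, whose coordinates were not converted. Records deposited beside the lists give the origin of each: a replicate list was made with its own alignment plus 1 file of unstated kind that all lists of a build share, and the pooled list with both alignments and that file. Which aligner and peak caller were used is not given in the sources used here. Each region's signal value and −log10 q were made by the authors' peak caller. In the pooled list the deposited −log10 q dips below 0 for some regions and was treated as a score.

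Genes, exons and sequence were those of RefSeq WBcel235, checked against Ensembl release 115 by identifier. Chromosome lengths matched and no region lay beyond them. The software was Python 3.11.15, scipy 1.17.1, pandas 2.3.3, numpy 2.4.6, matplotlib 3.10.9 and Biopython 1.88. Copies were searched with blastn 2.17.0. The overlap steps were tested on simulated data. Shares have 95% exact Clopper-Pearson intervals and medians have order-statistic intervals. No p-value was computed, since there is 1 group and genes are not replicates. The 2 replicates are biological per the labels.

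Named were members with a pooled or optimal IDR region, with a region in the top 500 of either replicate, the 10 with the best mean rank of overlapping regions, and the 5 with most regions. The members and lists were chosen with earlier results of these data known. Settings tried were the upstream length, the overlap rule, the part of the list used, the comparison genes, each replicate alone and the build.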

Additional observations from a re-analysis of the deposited data

How the results depend on the processing

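Of 65 alternatives, 33 left a value within the interval of the reported one or, for the count of optimal IDR peaks, left it at 1. That last setting, the ce10 pooled list, also replaces the optimal list by the pooled one and matches the region by signal alone. The settings with chromosome V members only, and the ce10 pooled list, were added after seeing the data. Shares of srw genes followed how much sequence and how much of a list was counted, and the comparison genes moved with them. Replicate 1 gave 48.3% with the gene body only, 70.3% with 2 kb upstream, 37.9% with the upper 50% of the list and 14.5% with the 5000 highest, where comparison genes gave 50.6, 71.7, 38.5 and 14.5%. Replicate 2 gave 74.5, 37.2 and 15.2% with 2 kb, the upper 50% and the 5000 highest, against 74.7, 41.1 and 16.9%. Both lists gave 28.3, 53.8, 16.6 and 3.45% in the order of replicate 1, against 31.2, 56.5, 18.0 and 3.16% of comparison genes. The share in either list, 82.1%, fell to between 60.7 and 62.1% with 1 replicate left out, by construction. Comparison genes gave 61.1, 59.2 and 60.4% in replicate 1 with the interquartile lengths of srw, lengths weighted, and other chemoreceptor families only. In replicate 2 they gave 62.6, 64.2 and 63.2% when weighted, within 100 kb of an srw gene, and as other families. In both lists they gave 40.8, 39.5, 43.1 and 40.4% for interquartile, weighted, within 100 kb and other families. Overlap of srw regions fell to 21.6% (replicate 1) and 19.9% (replicate 2) with reciprocal overlap of 50%, against 17.9 and 18.0% of whole lists. It fell to 17.6 and 16.2% with summits within 100 bp, against 12.4% of either list, and to 15 and 13.04% among the 5000 highest, 3 of 20 and 3 of 23 regions, against 6.52 and 6.54%. The median percentile rose to 61.4 and 59.8 with the best region per gene, by construction, where comparison genes gave 60.8 and 63.3. With 1 replicate left out it stayed between 48.4 and 49.5. The count of optimal IDR peaks went from 1 to 0 with the ce10 list. This 0 means only that no ce10 optimal peak had the signal of the srw-75 peak within 0.01 units. Since coordinates were not converted, ce10 peaks were not overlapped with srw genes. Except where said to be by construction, the cause was not tested. No paired analysis was possible because a single group was profiled. The lists give no read depth, and 36 pseudogenes limit their shares to wide intervals.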
